A study of Mus musculus with 4 samples.

Results

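The genes described here are 47 genes of DNA replication and S phase, all of which were found by symbol among the 55536 Ensembl genes of both count tables. They were chosen by name, with earlier results of these data known. The RNA came from primary ear fibroblasts of C57BL/6 mice, sequenced in states named AF357425-High and AF357425-Low, after a C/D box small nucleolar RNA of the imprinted Dlk1-Dio3 locus. Each state has 1 library of RNA recovered with an antibody against fibrillarin, the methyltransferase that such RNAs guide, and 1 library of whole-cell RNA, so the 4 libraries form 4 groups of 1. The labels attach overexpression to AF357425-High and inhibition to AF357425-Low, while the treatment text speaks of gapmers (antisense oligonucleotides) against AF357425 or a scrambled control. All cells received KN93, a calmodulin-dependent kinase inhibitor given to synchronize the cell cycle, for 48 h and were then transfected for 24 h, so every group shares this treatment and no untreated or asynchronous library is among the 4. How many mice were used, and whether cultures were separate, the labels do not say.

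The AF357425-High and AF357425-Low pulldowns had 25857770 and 27832061 reads assigned to genes, and the whole-cell libraries 22082565 and 21693030. Levels are given in CPM, the reads of a gene scaled to the same total of gene-assigned reads in every library. No library had a read on AF357425 itself, so its counts do not check the state labels. All 10 fibroblast markers had reads in every library. Markers of leukocytes, endothelial cells, keratinocytes, melanocytes and Schwann cells, and muscle summed to at most 5.75 CPM per list in any library, while the chondrocyte markers summed to 113 and 140 CPM in the AF357425-High and AF357425-Low pulldowns and to 288 and 203 CPM in whole-cell RNA. Mitochondrial ribosomal RNA took 63.4% and 59.8% of the gene-assigned reads in the pulldowns, against 0.0926% and 0.0583% in whole-cell RNA. Reads left out because they fell on more than 1 gene were 9.38% and 8.54% of all fragments in the pulldowns, against 1.05% and 1.09% in whole-cell RNA.

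DNA replication starts at origins bound by the origin recognition complex, which with Cdc6 and Cdt1 loads the MCM2-7 helicase in G1 phase. Cyclin E with its kinase and the kinase Cdc7 then activate the helicase together with Cdc45 and GINS, polymerases copy the strands behind a PCNA clamp loaded by RFC, and ribonucleotide reductase supplies the nucleotides. Many of these genes are targets of E2F transcription factors, which the retinoblastoma protein holds back until late G1, so that their messenger RNAs come and go together with the number of cells entering S phase. In bulk RNA, fewer cells in S phase and less RNA per cell cannot be told apart.

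Many replication genes are targets of E2F, as given above, so their share of E2F forms is not independent of their choice by name. Short motifs were searched in promoters of the 47 genes. RefSeq promoter windows (GRCm38.p6, from 250 bases before to 50 bases after each annotated start) were given for 39 of them, and 25 of the 39 (64.1%) held a short form of the E2F site on either strand. A gene with several starts counted if any of its windows held a match. The forms searched were TTCCCGC, its relative TTCGCGC, the form TTGCCGC and also the form TTGGCGC, with overlapping matches counted separately. They stood in 19.8% of 9197 protein-coding genes measured in whole-cell RNA and in 10.9% of all 27025 genes of the table. The CCAAT box, the site of NF-Y, stood in 61.5% of the 39 genes, against 43.2% of the measured protein-coding genes. The form TTTGAA and its relative TTCGAA, which resemble the cell-cycle homology region of mitotic genes, were in 20.5%, against 16.3%. Of 39 mitosis genes, 15.4% had E2F forms, 71.8% the CCAAT box and 74.4% cell-cycle homology forms. In 76 other genes of the replication pathway these shares were 47.4%, 46.1% and 23.7%. A match describes letters in a window and shows no binding.

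**Figure D1:**
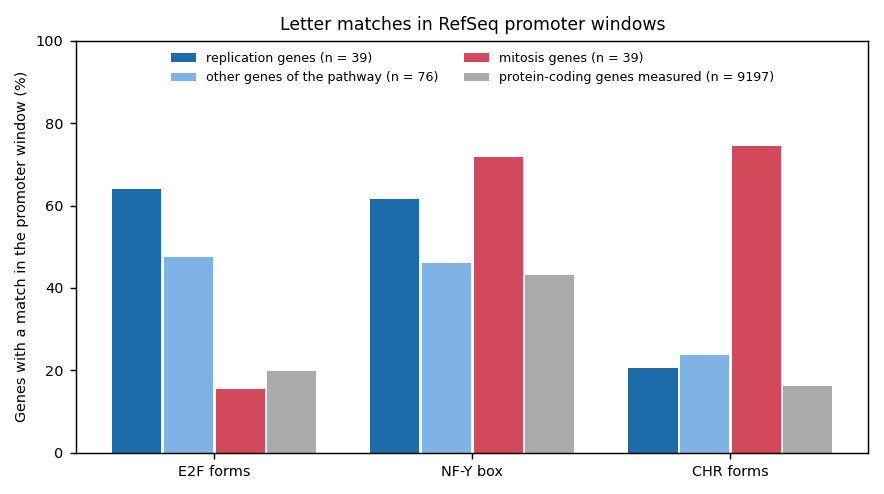
Share of genes (%) whose promoter windows hold a match, for E2F forms, the NF-Y box and CHR (cell-cycle homology region) forms, in replication genes, other genes of the pathway, mitosis genes and all protein-coding genes measured in whole-cell RNA. Replication genes stand at 64.1% for E2F forms and mitosis genes at 15.4%, and the order is turned round for CHR forms, at 20.5% and 74.4%.

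The last 120 bases before the start are shown for 1 gene of each functional group that has a match there, to let the matched letters be seen. Genes without a match, 14 of the 39, are not shown. The regulators of S-phase entry had none: E2f1 and Ccne1 held no E2F form in their windows, and Ccne2 had no window. They run 5′ to 3′ along the gene, from RefSeq (GRCm38.p6), with E2F forms in capitals. In Mcm6, each capital stretch is a pair of overlapping matches, 1 on each strand. The Fen1 window stands before an internal start, within the span of the gene, and its other annotated start had no E2F form.
Mcm6, helicase subunit, chr1:128359706-128359825, minus strand: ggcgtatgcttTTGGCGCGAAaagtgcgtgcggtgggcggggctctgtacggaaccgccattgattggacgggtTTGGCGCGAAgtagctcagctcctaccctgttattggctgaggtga
Gins3, GINS subunit, chr8:95633439-95633558, plus strand: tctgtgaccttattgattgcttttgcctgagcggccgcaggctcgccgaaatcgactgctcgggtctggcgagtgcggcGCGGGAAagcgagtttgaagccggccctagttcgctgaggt
Prim1, catalytic primase subunit, chr10:128015095-128015214, plus strand: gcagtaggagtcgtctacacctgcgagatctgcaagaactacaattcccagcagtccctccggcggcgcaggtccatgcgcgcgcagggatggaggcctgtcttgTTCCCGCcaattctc
Rfc3, clamp loader subunit, chr5:151651209-151651328, minus strand: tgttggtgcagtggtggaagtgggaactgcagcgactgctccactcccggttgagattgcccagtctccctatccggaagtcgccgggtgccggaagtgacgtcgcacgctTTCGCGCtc
Fen1, flap endonuclease, chr19:10203922-10204041, minus strand: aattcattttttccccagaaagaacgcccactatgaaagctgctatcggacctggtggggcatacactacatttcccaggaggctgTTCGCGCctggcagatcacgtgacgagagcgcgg
Rrm1, large subunit of ribonucleotide reductase, chr7:102441575-102441694, plus strand: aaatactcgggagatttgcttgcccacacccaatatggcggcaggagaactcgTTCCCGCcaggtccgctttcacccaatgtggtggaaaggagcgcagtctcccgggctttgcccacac
Chaf1a, large subunit of chromatin assembly factor 1, chr17:56040296-56040415, plus strand: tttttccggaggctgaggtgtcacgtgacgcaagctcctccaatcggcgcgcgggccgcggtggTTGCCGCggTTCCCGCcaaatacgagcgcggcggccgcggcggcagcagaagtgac

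Whole-cell RNA of AF357425-High was set against that of AF357425-Low to ask whether the replication program differed, after TMM scaling, which sets the bulk of genes to a ratio near 1. Of the 47 genes, 46 reached a mean of 1 CPM over both libraries, and 41 of the 46 had a ratio below 0, against 51.8% of all 13519 genes measured. Their median log2 ratio was -0.17, or 0.891-fold, while the median of all measured genes was -0.01. All 46 lay within 1.5-fold, as did 92.8% of all genes. Each ratio carries a 95% interval that covers counting error only, and with 1 library a group no difference has a replicate check and none was tested. The whole interval was below 0 for 24 of the 46 genes, against 20.5% of all genes, and above 0 for 1 gene, against 18.0%. With library totals in place of TMM scaling, which moves every ratio by 0.06, 36 genes lay below 0, against 39.7% of all genes; 14 did so with the whole interval, against 14.0%, and 2 lay above with it, against 27.3%. No replication gene passed the 2-fold line with its whole interval, which 0.133% of all genes did downwards and 0.111% upwards. The replication genes had between 146 and 5422 reads over the pair of libraries, with a median of 935.5, and all measured genes had a median of 909.

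Summed over the 47 genes, whole-cell RNA held 1432 CPM in AF357425-High (exact Poisson 95% interval 1417 to 1448) and 1542 CPM in AF357425-Low (1526 to 1559). After TMM scaling the log2 ratio of the sums was -0.17 (-0.19 to -0.15). Every functional group had a summed ratio below 0, between -0.10 for origin licensing and -0.25 for the polymerases and for the chromatin genes. The chondrocyte markers, 5 of 6 of which had reads in each library (Matn1 had none), were higher in AF357425-High whole-cell RNA as given above, and their part in the result was not tested.

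Origin licensing was the group closest to 0. The origin recognition subunit Orc1 had 109 reads in AF357425-High, against 83 in AF357425-Low, a ratio of 0.30 (-0.12 to 0.73). Orc6 had 432 reads in AF357425-High, against 361 in AF357425-Low (0.17, -0.04 to 0.37). Orc2 had 1024 reads in AF357425-High, against 864 in AF357425-Low (0.15, 0.02 to 0.29) and was the gene whose whole interval lay above 0. The 3 origin recognition genes were therefore all above 0, while the rest of the group, from the loaders to the helicase, was not. Cdc6, which loads the helicase, had -0.21 (-0.41 to 0.00), its partner Cdt1 had -0.07, and Gmnn, the geminin that inhibits Cdt1, had -0.07. The MCM2-7 subunits lay between -0.25 for Mcm2 and -0.04 for Mcm7, which had the most reads of the 6 (1668 in AF357425-High, against 1608 in AF357425-Low). With library totals Mcm7 and Mcm6 stood above 0. Mcm2, Mcm3, Mcm4 and Mcm5 had whole intervals below 0, and those of Mcm6 (-0.05, -0.16 to 0.07) and Mcm7 (-0.04, -0.14 to 0.06) held 0. Summed, the 6 subunits had 324 CPM in AF357425-High (317 to 332) and 343 CPM in AF357425-Low (335 to 351).

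Genes of helicase activation had few reads. Cdc45 was listed at 0 in all 4 libraries, as was the overlapping Ufd1 in 3 of them, with 1 read in the AF357425-Low pulldown; a count of 0 allows up to 0.136 CPM in AF357425-High and 0.138 CPM in AF357425-Low whole-cell RNA by counting error. The annotation behind the counts is not named, so whether reads of Cdc45 could be counted at all was not tested, and the 0 is no measure of its expression. Gins3 had 95 reads in AF357425-High, against 115 in AF357425-Low whole-cell RNA, a ratio of -0.37 (-0.77 to 0.04). Gins2 had 284 and 317 reads in AF357425-High and AF357425-Low (-0.25, -0.49 to -0.01), and Gins1 76 and 70 (0.03, -0.46 to 0.52). Mcm10, which joins the helicase to the primase, had -0.08.

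All 9 primase and polymerase genes lay below 0 with TMM scaling, and all but Pola2 and Pole2 with library totals. Pold2, the small accessory subunit of polymerase delta, had 223 reads in AF357425-High, against 287 in AF357425-Low, a ratio of -0.45 (-0.71 to -0.20). It overlaps Aebp1, which had 34152 reads in AF357425-High, against 41129 in AF357425-Low, and the part of that gene in the Pold2 counts was not tested. Pole, the catalytic subunit of the leading-strand polymerase epsilon, had 756 reads in AF357425-High, against 927 in AF357425-Low (-0.38, -0.53 to -0.24). The primase subunit Prim2 had -0.32 (-0.51 to -0.13), and Pola1, the catalytic subunit of the polymerase that primes synthesis, -0.20 (-0.38 to -0.03). The intervals of the other 5 held 0.

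Among the clamp and loader genes, Pcna, the sliding clamp, had 1371 reads in AF357425-High, against 1437 in AF357425-Low, a ratio of -0.16 (-0.27 to -0.05). The loader subunits Rfc1 (-0.15, -0.26 to -0.04) and Rfc2 (-0.30, -0.48 to -0.12) also had whole intervals below 0. Rfc4, with 77 and 72 reads in AF357425-High and AF357425-Low, had 0.01 (-0.48 to 0.49). Okazaki fragment maturation showed larger ratios: the flap endonuclease Fen1 had 437 reads in AF357425-High, against 516 in AF357425-Low, and DNA ligase Lig1 530 and 627, each with a ratio of -0.33. The single-strand binding subunit Rpa1 had 1847 and 1880 reads in AF357425-High and AF357425-Low (-0.12, -0.21 to -0.02), and its partner Rpa2 had -0.12 (-0.35 to 0.11).

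Thymidine kinase Tk1 had the lowest ratio of the 46 genes. It had 312 reads in AF357425-High, against 427 in AF357425-Low, a ratio of -0.54 (-0.76 to -0.33). The overlapping Afmid had 34 and 39 reads in AF357425-High and AF357425-Low. Thymidylate synthase Tyms had -0.29 (-0.45 to -0.13). Of the subunits of ribonucleotide reductase, Rrm1 had 1887 and 2005 reads in AF357425-High and AF357425-Low (-0.18, -0.27 to -0.09), and Rrm2, the subunit whose level limits the enzyme in S phase, had 1738 and 1716 reads (-0.07, -0.17 to 0.02). The thymidine genes were thus below the reductase genes in point value, a difference that was not tested. Uhrf1, which reads hemimethylated DNA, had 1027 reads in AF357425-High, against 1269 in AF357425-Low (-0.40, -0.52 to -0.28). Dnmt1, the maintenance methyltransferase it recruits and the replication gene with the most reads, had 2582 in AF357425-High and 2840 in AF357425-Low (-0.23, -0.31 to -0.15). The chromatin assembly subunits Chaf1b and Chaf1a had -0.31 (-0.54 to -0.09) and -0.11 (-0.25 to 0.03). Of the regulators of S-phase entry, E2f1 had -0.19 (-0.34 to -0.05), cyclin E1 (Ccne1) -0.17 (-0.33 to -0.01) and cyclin E2 (Ccne2) -0.07 (-0.26 to 0.13).

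**Figure D2:**
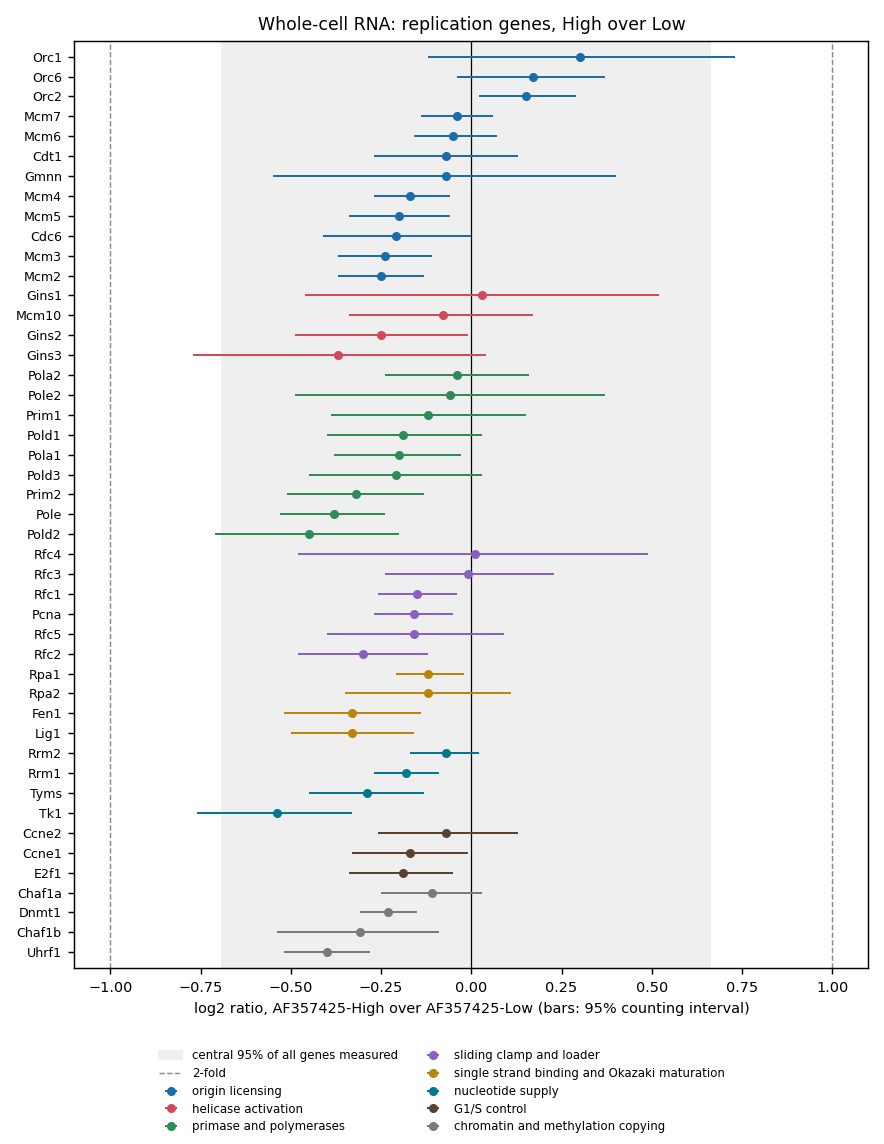
Whole-cell log2 ratio of AF357425-High over AF357425-Low for the 46 replication genes measured, by functional group; points are ratios, bars 95% counting intervals, the grey band the central 95% of all genes measured and the dashed lines 2-fold. All points lie between -0.54 (Tk1) and 0.30 (Orc1), 41 of them left of 0.

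The 25 genes with an E2F form in their promoter had a median whole-cell log2 ratio of -0.18, and the 13 measured genes without one a median of -0.16. In the pulldown the medians were -0.06 over 24 genes with a form and -0.43 over 13 without, a difference that was not tested. The 100 other genes of the replication pathway were all measured, and 66 were below 0, with a median of -0.11; the whole interval was below 0 for 35 and above 0 for 12, and none passed the 2-fold line. The lowest were Hells, a helicase of chromatin remodelling (-0.78, -0.96 to -0.60), Top2a, the topoisomerase that untangles copied chromosomes (-0.75, -0.84 to -0.66), and the helicase Recql4 (-0.72, -1.15 to -0.29). The highest were the origin recognition subunit Orc5 (0.39, 0.17 to 0.62), the helicase-activating kinase Cdc7 (0.37, 0.07 to 0.68) and the nucleoside kinase Dck (0.35, 0.14 to 0.55). Mitosis genes, whose messenger RNAs peak later in the cycle, lay lower than the replication genes: 45 of 46 were below 0, with a median of -0.38, and 32 had the whole interval below 0. The difference between these lists was not tested.

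In the fibrillarin pulldown the question is whether the replication messenger RNAs recovered there differed between the states. Of the 47 genes, 45 reached a mean of 1 CPM; Cdc45 and Fen1 did not. Ratios below 0 were found for 29 of the 45, against 50.8% of 10736 genes measured, and the median was -0.11, against -0.01 for all genes. The whole interval was below 0 for 16 genes, or 35.6%, against 32.5% of all genes, and above 0 for 8 genes, against 31.5%. With library totals these counts became 28 and 1, against 53.3% and 16.0% of all genes, since that scaling moves every ratio by -0.29. With TMM scaling the share of whole intervals below 0 was near that of all genes. The replication genes had a median of 339 reads over the pair, against 468 for all measured genes.

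Gins1, a subunit of the GINS complex, was the single gene past the 2-fold line, which 2.90% of all genes passed downwards and 3.43% upwards. Gins1 (GRCm38, chr2:150909556-150931280) had 2 reads in the AF357425-High pulldown, against 71 in AF357425-Low, a log2 ratio of -4.75 (-7.82 to -2.84). Its mean of 1 CPM was reached through the AF357425-Low library alone. Its span overlaps that of Gm20550. Another 20 of the 47 genes also overlap an annotated gene, and without a known strand setting the reads of such pairs cannot be told apart. In whole-cell RNA the same gene had 76 and 70 reads in AF357425-High and AF357425-Low, with an interval of the ratio that held 0. Its partners in the complex stood nearer 0. Gins2 had 33 and 50 reads in the AF357425-High and AF357425-Low pulldowns (-0.20, -0.88 to 0.46), and Gins3 had 111 and 108 (0.44, 0.05 to 0.84).

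Subunits of the clamp loader lay between -1.56 and 0.83 in the pulldown, within the central 95% of all genes measured there (-1.60 to 1.68). Rfc4 had 19 reads in AF357425-High, against 74 in AF357425-Low (-1.56, -2.37 to -0.82), and Rfc3 had 39 and 112 (-1.12, -1.69 to -0.58). Rfc4 reached the mean of 1 CPM through AF357425-Low alone (0.735 CPM in AF357425-High, against 2.66). The gene Eif4a2, which overlaps Rfc4, had 984 reads in AF357425-High, against 2269 in AF357425-Low, and its part in the Rfc4 counts was not tested. Rfc5 had 166 reads in AF357425-High, against 123 in AF357425-Low (0.83, 0.49 to 1.18), and Rfc2 had 110 and 97 (0.58, 0.18 to 0.99). Rfc1, the largest subunit, had 812 and 995 reads in AF357425-High and AF357425-Low (0.11, -0.03 to 0.24). In whole-cell RNA these 5 genes had lain between -0.30 and 0.01. Summed, they had 44.3 CPM in the AF357425-High pulldown (41.8 to 47.0) and 50.3 CPM in the AF357425-Low pulldown (47.7 to 53.0), a TMM-scaled ratio of 0.11 (0.00 to 0.22) that lies below 0 with library totals, as these CPM show. Pcna, which they load, had 351 and 639 reads in AF357425-High and AF357425-Low (-0.46, -0.66 to -0.27).

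Polymerase subunits differed among themselves too. Pold1, the catalytic subunit of polymerase delta, had 11 reads in AF357425-High, against 51 in AF357425-Low (-1.81, -2.90 to -0.85). It reached the mean of 1 CPM through AF357425-Low alone (0.425 CPM in AF357425-High, against 1.83). With library totals its whole interval passed the 2-fold line, as did those of Rfc4 and Gins1 among the replication genes and of 5.66% of all genes. Pola2, the regulatory subunit of the priming polymerase, had 46 and 101 reads in AF357425-High and AF357425-Low (-0.73, -1.27 to -0.22). Pold2, the partner of Pold1, had 88 reads in AF357425-High, against 84 in AF357425-Low (0.47, 0.02 to 0.92). Pole had 285 and 325 reads in AF357425-High and AF357425-Low (0.21, -0.02 to 0.45). Of the remaining members with high ratios, Mcm10 had 119 and 106 reads in AF357425-High and AF357425-Low (0.57, 0.18 to 0.96), and Orc1 had 47 and 43 (0.53, -0.10 to 1.16).

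The regulators of S-phase entry and the nucleotide genes all lay below 0 in the pulldown. Ccne2 had 276 reads in AF357425-High, against 562 in AF357425-Low (-0.63, -0.84 to -0.41), Ccne1 86 and 165 (-0.54, -0.93 to -0.15), and E2f1 123 and 216 (-0.41, -0.74 to -0.09). Summed, these 3 genes had 18.8 CPM in the AF357425-High pulldown (17.1 to 20.5) and 33.9 CPM in the AF357425-Low pulldown (31.8 to 36.1), with a TMM-scaled log2 ratio of -0.56 (-0.72 to -0.40), the lowest summed log2 ratio of the 8 functional groups. In whole-cell RNA their sum had a ratio of -0.15 (-0.25 to -0.06). Ints8, which overlaps Ccne2, had 214 and 400 reads in the AF357425-High and AF357425-Low pulldowns. Necab3, which overlaps E2f1, had 27 and 1. The part of these genes in the counts was not tested. Tk1 (-0.50), Tyms (-0.49) and Rrm2 (-0.43) had whole intervals below 0, and Rrm1, with 1194 and 1656 reads in AF357425-High and AF357425-Low, had -0.07 (-0.18 to 0.04). Licensing genes went both ways, with Orc2 at -0.48 (-0.71 to -0.26), Mcm4 at -0.45 (-0.66 to -0.25), Mcm2 at -0.43 (-0.71 to -0.15) and Mcm6 at 0.20 (0.05 to 0.35). Mcm7 had 240 and 294 reads in AF357425-High and AF357425-Low (0.11, -0.14 to 0.36). Chaf1a had 0.28 (0.11 to 0.45) and Lig1 0.35 (0.18 to 0.51). With library totals Mcm6, Mcm7 and Chaf1a lay below 0. Dnmt1 had 1177 and 1619 reads in AF357425-High and AF357425-Low (-0.06, -0.17 to 0.05), and Rpa1 had 688 and 863 (0.07, -0.07 to 0.22).

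**Figure D3:**
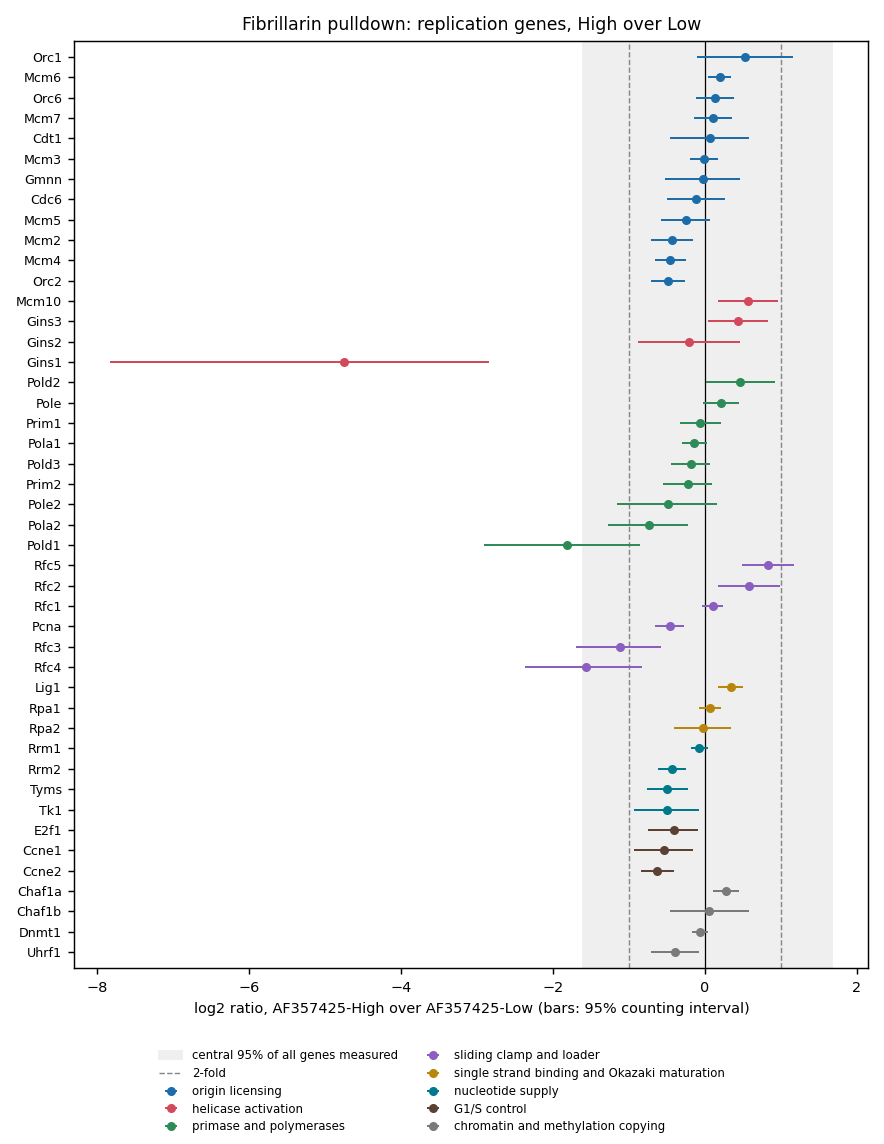
Pulldown log2 ratio of AF357425-High over AF357425-Low for the 45 replication genes measured, by functional group, drawn as for whole-cell RNA. Gins1 stands apart at -4.75, and the loader subunits run from -1.56 (Rfc4) to 0.83 (Rfc5).

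Of the 100 other genes of the pathway, 95 were measured in the pulldown, and 56 were below 0, against 50.8% of all genes. The 2-fold line was passed downwards by 5 and upwards by 1, against 2.90% and 3.43% of all genes. Among those lower were the nuclease-helicase Dna2 (-2.10, -3.31 to -1.07), the folate enzyme Shmt1 (-1.77, -2.35 to -1.23), Mcm9, whose span overlaps Asf1a (-1.51, -1.86 to -1.17), and Top2a, which is in the mitosis list too (-1.15, -1.21 to -1.09). Dna2 reached the mean of 1 CPM through AF357425-Low alone (0.348 CPM in AF357425-High, against 1.83). The higher gene was Samhd1, which degrades deoxynucleotides, with 1962 reads in AF357425-High, against 1020 in AF357425-Low (1.34, 1.23 to 1.46). The cell-cycle inhibitor gene Cdkn2a had 64 and 31 reads in AF357425-High and AF357425-Low (1.45, 0.81 to 2.11), the delta subunit Pold4 1.22 (0.41 to 2.06) and the single-strand binding subunit Rpa3 -1.69 (-2.73 to -0.76). Pold4 reached the mean of 1 CPM through AF357425-High alone (1.43 CPM, against 0.755 in AF357425-Low). Rpa3 reached it through AF357425-Low alone (1.83 CPM, against 0.464 in AF357425-High). Mitosis genes again lay lower than replication genes, with 44 of 46 below 0 and a median of -0.45, a difference that was not tested either. Of the 46 mitosis genes, 8 were past the 2-fold line downwards, against 2.90% of all genes.

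Within each state, pulldown and whole-cell CPM were compared directly. No control pulldown is among the 4 libraries, so RNA bound to fibrillarin and background recovery cannot be told apart. Summed, the 47 genes had 446 CPM in the AF357425-High pulldown (438 to 455), against 1432 CPM in whole-cell RNA, and 579 CPM in the AF357425-Low pulldown (570 to 588), against 1542 CPM. In both states 28 of 46 genes were lower in the pulldown past the 2-fold line, a share of 60.9%, beside 60.6% of the 12382 genes measured. None was higher, against 1.42% of all genes. The median log2 ratio was -1.94 in AF357425-High and -1.55 in AF357425-Low, against -2.16 and -1.77 for all genes. The share of replication genes past the line was thus near that of all genes. TMM scaling left 3 genes past the line downwards and 2 upwards, against 18.0% and 8.86% of all genes.

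Fen1 (GRCm38, chr19:10199132-10204393) stood lowest. It had 1 read in the AF357425-High pulldown, against 437 in whole-cell RNA, a log2 ratio of -9.00 (-14.31 to -6.51), and 0 reads in the AF357425-Low pulldown, against 516 in whole-cell RNA, which makes it at least 221-fold lower at a floor of 3 reads. Fen1 overlaps Tmem258, which had 45 and 63 reads in the AF357425-High and AF357425-Low pulldowns, against 557 and 542 in whole-cell RNA. Reads that fall on both genes are not counted for either, and the share of such reads over the whole library was higher in the pulldowns (given above); the part of this in the Fen1 counts was not tested. The next lowest in AF357425-High were Gins1 at -5.48 (-8.55 to -3.57), Pold1 at -5.21 (-6.23 to -4.35), Pola2 at -3.40 (-3.88 to -2.96) and Gins2 at -3.33 (-3.90 to -2.81). In AF357425-Low they were Pold1 at -3.23 (-3.68 to -2.80), Gins2 at -3.02 (-3.48 to -2.59), Rfc2 at -2.91 (-3.23 to -2.59) and Cdt1 at -2.87 (-3.25 to -2.50), which had 73 reads in that pulldown, against 415 in whole-cell RNA.

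At the other end, some replication genes had nearly the same CPM in the pulldown as in whole-cell RNA. This holds for library totals, of which mitochondrial ribosomal RNA took the share given above. TMM scaling raises every ratio by 1.84 in AF357425-High and 1.43 in AF357425-Low, which puts Gins3 at 1.84 and 0.98, Lig1 at 1.73 and 0.99, and Pola1 at 1.60 and 1.47. The values that follow are by library totals. Gins3 had 0.00 (-0.41 to 0.41) in AF357425-High and -0.45 (-0.84 to -0.06) in AF357425-Low, Lig1 -0.12 (-0.29 to 0.06) and -0.44 (-0.60 to -0.27), and Pola1 -0.25 (-0.43 to -0.07) and 0.05 (-0.11 to 0.21). Prim1 had 194 reads in the AF357425-High pulldown, against 229 in whole-cell RNA (-0.47, -0.75 to -0.18), and 267 in the AF357425-Low pulldown, against 233 (-0.16, -0.42 to 0.10). Gmnn had 62 reads in the AF357425-High pulldown, against 77 in whole-cell RNA (-0.54, -1.05 to -0.04), and 83 in the AF357425-Low pulldown, against 76 (-0.23, -0.70 to 0.24). Between the states, with TMM scaling, the ratio of neither gene changed beyond counting error (Prim1 0.06, -0.32 to 0.43, and Gmnn 0.05, -0.61 to 0.71). Ccne2 had -0.89 (-1.11 to -0.67) in AF357425-High and 0.03 (-0.16 to 0.21) in AF357425-Low, and Pold3, an accessory subunit of polymerase delta, -0.59 (-0.85 to -0.33) and -0.25 (-0.48 to -0.02). Of the most read genes of their groups, Rrm1 had -0.89 and -0.64 in AF357425-High and AF357425-Low, Dnmt1 -1.36 and -1.17, Rpa1 -1.65 and -1.48, Pole -1.64 and -1.87, Pcna -2.19 and -1.53, and E2f1 -2.85 and -2.26. The MCM2-7 subunits, whose proteins form 1 complex, were spread from -3.02 (Mcm7) to -1.07 (Mcm6) in AF357425-High and from -2.81 (Mcm7) to -0.95 (Mcm6) in AF357425-Low, in the same order at both ends. Mcm7 spans the microRNA genes Mir106b, Mir93 and Mir25 and overlaps Ap4m1. Genes with a span under 20 kb had a median of -2.36 in AF357425-High and -1.85 in AF357425-Low (26 genes), and longer genes -1.54 and -1.21 (20 genes). Across genes, which are not replicates and share their libraries, the Spearman correlation of span and ratio was 0.375 over 46 replication genes in AF357425-High. It was 0.251 over all protein-coding genes and 0.204 over the 26 replication genes that overlap no other. In AF357425-Low these values were 0.338 over 45 replication genes, 0.278 over all protein-coding genes and 0.125 over the 26.

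**Figure D4:**
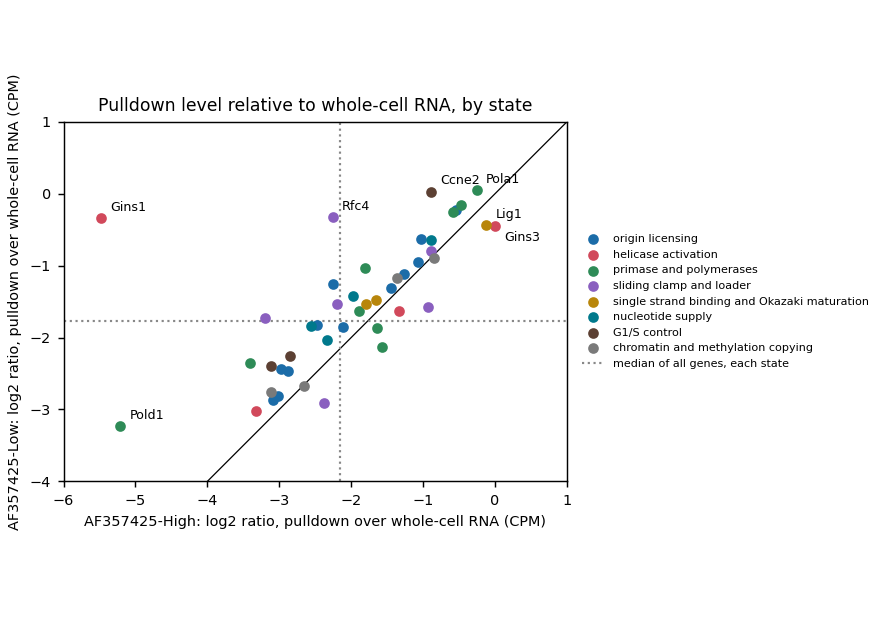
log2 ratio of pulldown over whole-cell CPM for 45 replication genes, AF357425-High on the x axis and AF357425-Low on the y axis, without Fen1; the diagonal marks equal ratios and dotted lines the median of all genes in each state. Gins1 lies at -5.48 in AF357425-High and -0.34 in AF357425-Low, far from the diagonal. Most other genes lie nearer to the diagonal and above it. The medians with Fen1 included are -1.94 in AF357425-High and -1.55 in AF357425-Low, against -2.16 and -1.77 for all genes.

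For 44 genes, those with 10 or more reads in all 4 libraries, the pulldown ratio was compared between the states. Its median was 0.06, against -0.01 for all genes. The whole interval was below 0 for 9 genes, against 30.4% of 10300 genes, and above 0 for 13, against 29.7%; with library totals these counts were 20 and 4, against 54.7% and 12.9% of all genes. The lowest were Pold1 (-1.63, -2.59 to -0.66), Rfc4 (-1.57, -2.43 to -0.70), Rfc3 (-1.11, -1.69 to -0.54), Pola2 (-0.69, -1.23 to -0.15) and Orc2 (-0.64, -0.89 to -0.38). Pold1 and Rfc4 counted as measured in the pulldown through AF357425-Low alone, as given above. The highest were Rfc5 (0.99, 0.58 to 1.40), Pold2 (0.92, 0.42 to 1.42), Rfc2 (0.88, 0.45 to 1.31), Gins3 (0.81, 0.26 to 1.35) and Lig1 (0.68, 0.44 to 0.91). Gins1, with 2 reads in 1 library, was not among the 44.

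**Figure D5:**
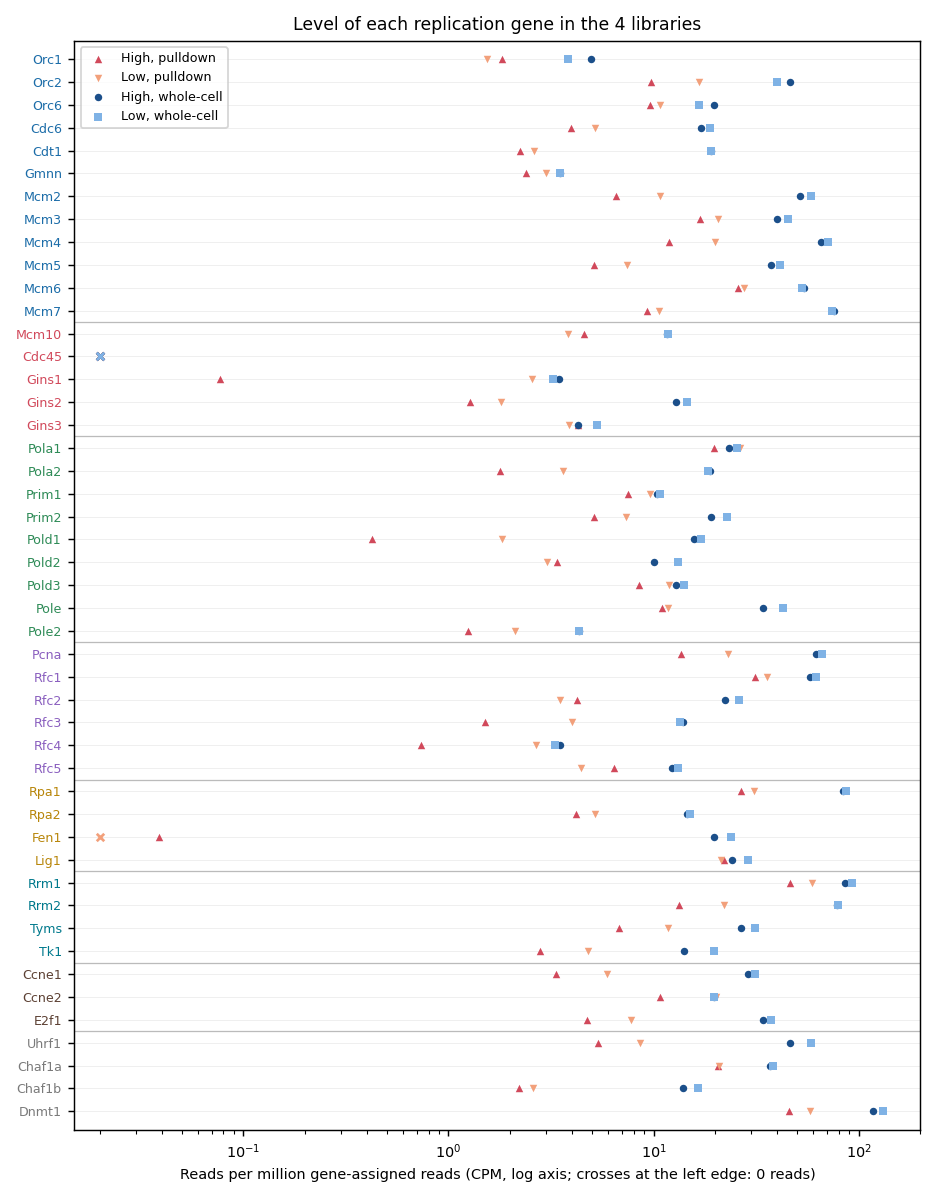
Level of each of the 47 replication genes (CPM, log axis) in the AF357425-High and AF357425-Low pulldowns and whole-cell libraries, grouped by function, with crosses at the left edge for 0 reads. Whole-cell points of the states nearly coincide, the highest being Dnmt1 at 117 and 131 CPM in AF357425-High and AF357425-Low. Pulldown points lie mostly to their left. Fen1 lies farthest from its whole-cell points in each state, and Gins1 next in AF357425-High only. In AF357425-Low, Gins1 has 2.55 CPM in the pulldown, against 3.23 in whole-cell RNA.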

How the data were processed

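The deposited tables hold fragment counts per Ensembl gene, not normalized by the authors. Per the submitters' processing notes, cutadapt 2.4, STAR 2.6.0c, HTSeq 0.9.1, StringTie 1.3.4 and GRCm38 were used; no source used here names the annotation or the strand setting. Of the 55536 IDs, 55450 were paired with symbols, and spans and overlaps on either strand came from RefSeq (GRCm38.p6). HTSeq's summary lines were left out of the totals. States were compared within a table after TMM scaling (edgeR 4.0.16, R 4.3.3), and the pulldown with whole-cell RNA by library totals, since the tables were made separately. With 1 library a group no test was run. Ratios carry exact conditional (Clopper-Pearson) 95% intervals, the change over 4 libraries a normal approximation, and sums exact Poisson intervals. A gene counted as measured if its mean over the libraries compared reached 1 CPM, and a gene was called only where its whole interval lay beyond 2-fold. The computation was tested on simulated data with counting error only, which cannot show how the intervals hold between replicate libraries.

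A count of 0 was limited at 3 reads, or 0.116 and 0.108 CPM in the AF357425-High and AF357425-Low pulldowns and 0.136 and 0.138 CPM in whole-cell RNA; intervals and floors cover counting error only. The members, the gene lists and the tests were chosen with earlier results of these data known. In each comparison the 5 lowest and 5 highest members, members past the line and the most read member of each group are named with their ratios, and with intervals and reads beside all but a few of them, and other genes of the pathway only past the line or among the 3 lowest or highest; further members are named by their role. Alternatives were other scalings, filters, a 1.5-fold line, and leaving out genes that overlap another. Of the other genes of the pathway past the line in the pulldown, 1 is not reported here.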

Additional observations from a re-analysis of the deposited data

Results flagged for a closer look

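For 4 of 45 replication genes measured in both kinds of library (8.89%), the whole interval of the AF357425-High over AF357425-Low ratio lay on opposite sides of 0 in the pulldown and in whole-cell RNA, as it did for 13.0% of 10366 genes measured in both. With 1 library a group the differences were not tested. Lig1 had 0.35 in the pulldown and -0.33 in whole-cell RNA, a difference of 0.68 (0.44 to 0.91). Pold2 had 0.47 and -0.45, a difference of 0.92 (0.42 to 1.42), and Rfc2 had 0.58 and -0.30, a difference of 0.88 (0.45 to 1.31). Orc2 went the other way, with -0.48 in the pulldown and 0.15 in whole-cell RNA, a difference of -0.64 (-0.89 to -0.38). Lig1, Pold2 and Orc2 overlap another annotated gene: Zswim9, which overlaps Lig1, had 276 and 476 reads in the AF357425-High and AF357425-Low pulldowns and 402 and 225 in whole-cell RNA. With library totals the pulldown ratios of Lig1 (0.05, -0.12 to 0.22), Pold2 (0.17, -0.27 to 0.62) and Rfc2 (0.29, -0.12 to 0.70) had intervals that held 0, and of the 4 genes Orc2 alone kept intervals on opposite sides of 0, with ratios of -0.78 in the pulldown and 0.22 in whole-cell RNA.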

How the results depend on the processing

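No paired analysis was possible because each group has 1 library, and no library could be left out for the same reason. In whole-cell RNA, library totals left 14 members with the whole interval below 0 and 2 above, against 24 and 1 with TMM. Without overlapping genes, 25 of 26 members were below 0, 13 with the whole interval, and 0 had it above 0. The shares of all genes there were 50.4%, 20.5% and 19.7%. In the pulldown, library totals gave 28 below 0 and 1 above with the whole interval, against 53.3% and 16.0% of all genes. They put 3 past the 2-fold line downwards, against 5.66% of all genes, with a median of -0.40 for the members. Totals without the 20 most abundant genes gave 5 with the whole interval above 0, against 26.8%. At a mean of at least 5 CPM, 26 members were left, of which 17 were below 0, against 49.3% of all genes. The whole interval was below 0 for 9 and above 0 for 4, against 34.5% and 35.6%. The line was passed by 0, against 1.66% downwards and 2.73% upwards. Without overlapping genes these counts were 17, 9, 5 and 0 of 26. The shares of all genes there were 49.3%, 31.2% and 32.4%, and for the line 2.74% downwards and 3.32% upwards. A 1.5-fold line was passed downwards by 3 of 45, against 7.85% of all genes. Pold1 (-2.11) and Rfc4 (-1.86) passed the 2-fold line with library totals. Against whole-cell RNA, TMM left 3 of 46 members lower past the line in both states, against 18.0% of all genes, and 2 higher, against 8.86%. Median-of-ratios size factors left 2 lower, against 16.9%, and 2 higher, against 9.57%. Totals that omit the 20 top genes left 6 lower, against 22%, and 1 higher, against 6.78%. With library totals, 16 of 26 members without overlaps were lower, against 59.4% of all genes. For the change of the pulldown ratio, library totals gave 20 below and 4 above 0, against 54.7% and 12.9% of all genes. Totals without the 20 most abundant genes gave 8 above, against 23.3%. A mean of 5 CPM gave 5 below, against 33.3%. Leaving out overlaps gave 5 below and 7 above, against 29.3% and 30.3%. E2F forms of 8 letters stood in 16 of 39 promoters, against 4.78% of measured protein-coding genes. Counts that dropped with a filter did so with fewer members measured; the other causes were not tested. The signs of small ratios, such as those of Mcm6 and Chaf1a in the pulldown, turned with library totals. Gins1, with 2 reads in the AF357425-High pulldown, had a wide interval. Fen1 and Cdc45 had too few reads for a ratio between the pulldowns, and the cause was not tested.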
